A study of Danio rerio with 6 samples.

Results

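*hcn2a* (ENSDARG00000102322) and *hcn2b* (ENSDARG00000061665) are the zebrafish copies of the HCN2 pacemaker channel gene. They were examined in *fdx1b*-/- larvae and siblings, as 2 of the 31388 genes in the exonic count table. Both were chosen by symbol because earlier results on these same libraries had shown them lower in the mutants, so their difference between the genotypes is described here and not tested. The identifier of *hcn2b* carries its symbol in the gene name table, whereas *hcn2a* is named only in the study's own gene table of this comparison, which is ordered by outcome. Both genes passed the filter on low counts, as did 26544 genes in all.

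Hyperpolarization-activated cyclic nucleotide-gated (HCN) channels open when the membrane becomes more negative, let sodium and potassium ions through, and drive the cell back towards its firing threshold. Cyclic AMP binds to their cytoplasmic part and eases opening, which is one way in which adrenergic signals can speed up the heart. In mammals HCN2 is abundant in the brain and is also made in the heart, where it contributes to rhythmic firing. The HCN genes are several, and their products can assemble into mixed channels.

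The larvae were 3 pools of *fdx1b* mutants, set against 3 pools of siblings, each pool holding 20 whole larvae at 5 dpf sampled at a zeitgeber time of 3 h. Mutants lack a functional ferredoxin that hands electrons to the mitochondrial enzymes of cortisol synthesis, and were recognised by their impaired adaptation of body colour to the background. The study calls the siblings wild-type and its fish stock AB, and no treatment is given in the labels, while the column headers carry the tag CTR for both genotypes. The mutation is carried by the whole animal, and whether some siblings were carriers is not given in the sources used here. The study calls the 3 pools of a genotype biological replicates, but the labels do not say whether they came from separate matings, and *p*-values measure only the spread between these pools.

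Total exonic counts were between 37099965 and 43594050 in the *fdx1b*-/- pools and between 18247332 and 49908095 in the sibling pools, sibling replicate 2 being the shallowest. Counts were scaled to counts per 1000000 (CPM) with TMM factors, which were between 0.991 and 1.007 in *fdx1b*-/- pools and between 0.9949 and 1.006 in sibling pools. All fixed markers of neurons, heart muscle, photoreceptors and skeletal muscle that had an identifier were counted in every pool. The transcript of *fdx1b* was not analysed here.

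Both *hcn2* genes, scaled for library size, stood lower in all *fdx1b*-/- pools than in any sibling pool. For *hcn2a*, the counts were 134, 137 and 143 in *fdx1b*-/- replicates 1, 2 and 3, against 270, 119 and 207 in sibling replicates 1, 2 and 3. Scaled for depth, *hcn2a* stood at 3.65, 3.34 and 3.27 CPM in the *fdx1b*-/- pools and at 5.38, 6.56 and 5.18 CPM in the sibling pools. The mutant pools lay close together and below every sibling pool, and sibling replicate 2, whose raw count was the lowest, had the highest scaled level. The mean level of *hcn2a* was 3.42 ± 0.201 CPM in *fdx1b*-/- larvae and 5.71 ± 0.744 CPM in siblings (SD, n = 3 each). The fitted log2 fold change was -0.72 (SE 0.12), which places *fdx1b*-/- larvae at 60.7% of the sibling level.

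For *hcn2b*, the counts were 231, 259 and 268 in *fdx1b*-/- replicates 1, 2 and 3, against 490, 191 and 342 in sibling replicates 1, 2 and 3. These gave 6.29, 6.32 and 6.13 CPM in the *fdx1b*-/- pools and 9.77, 10.5 and 8.56 CPM in the sibling pools. The order of the siblings was that seen for *hcn2a*, with replicate 2 highest and replicate 3 lowest, and the genotypes did not overlap. The mean level of *hcn2b* was 6.24 ± 0.102 CPM in *fdx1b*-/- larvae and 9.62 ± 0.992 CPM in siblings (SD, n = 3 each). The fitted log2 fold change was -0.61 (SE 0.097), or 65.4% of the sibling level. Because RNA was taken from whole larvae, fewer cells that express a gene and less RNA per cell cannot be told apart.

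**Figure D1:**
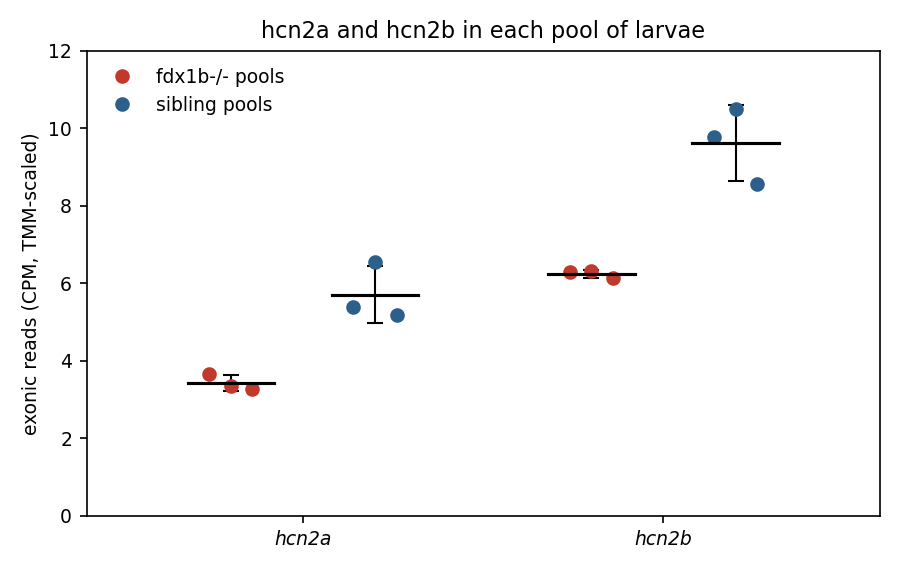
Exonic reads of *hcn2a* and *hcn2b* in CPM on a linear axis, with one point for each pool, red for *fdx1b*-/- and blue for siblings, the horizontal bar at the mean and the whiskers at ± SD (n = 3). The highest *fdx1b*-/- pool of *hcn2a*, at 3.65 CPM, and of *hcn2b*, at 6.32 CPM, lies below the lowest sibling pool, at 5.18 and 8.56 CPM.

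Both members passed the call threshold of the study, which asks for adjusted *p* ≤ 0.01 and a log2 change of 0.25 or more in size. Of all tested genes, 0.497% were called lower and 0.618% higher by edgeR's quasi-likelihood test with *p*-values adjusted after Benjamini and Hochberg. Nothing is read from the members' calls, since the same contrast chose them. The same holds for the lack of overlap, which was shared by many genes, as all 3 mutant values lay below all 3 sibling values in 13.0% of the tested genes and above them in 12.9%. Ranked by log2 fold change among the 132 genes called lower, *hcn2a* was at position 58 and *hcn2b* at 77. The calls depended on single libraries. With edgeR, neither gene was called when *fdx1b*-/- replicate 1, 2 or 3 or sibling replicate 1 was left out, and both were called without sibling replicate 2 or 3. Neither was called after all libraries were thinned to the smallest total. The fold changes themselves moved little, with values of -0.78 to -0.63 for *hcn2a* and of -0.69 to -0.56 for *hcn2b* over 14 alternatives.

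**Figure D2:**
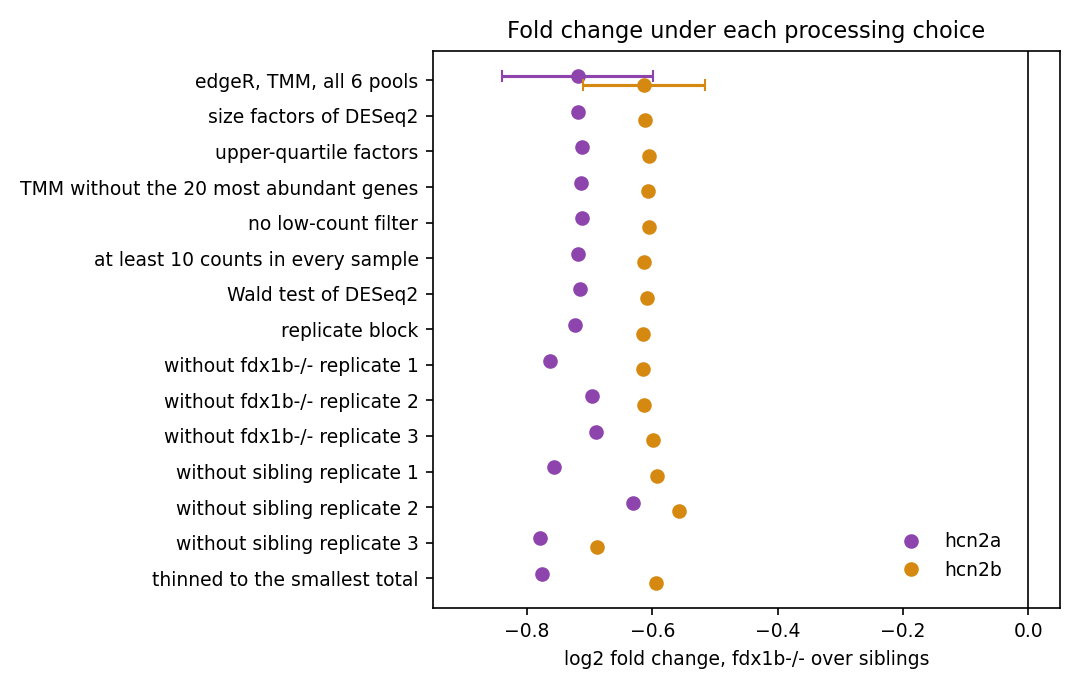
Log2 fold change of *hcn2a* (purple) and *hcn2b* (orange), *fdx1b*-/- over siblings, in the fit with all 6 pools (whiskers show the SE) and under 14 other choices of scaling, filter, test and libraries. Every value lies left of the line at 0, and leaving out sibling replicate 2 gives the values nearest to it, -0.63 and -0.56.

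The counts set a limit on how finely the pools can be told apart. For *hcn2a*, counting error alone gives a coefficient of variation of 8.51% in the *fdx1b*-/- pools and 7.4% in the sibling pools, and the observed values were 5.87% in the *fdx1b*-/- pools and 13.0% in the sibling pools. For *hcn2b*, counting error amounted to 6.3% in the *fdx1b*-/- pools and 5.72% in the sibling pools, and the observed values were 1.63% in the *fdx1b*-/- pools and 10.3% in the sibling pools. The observed value was thus below counting error in the mutant pools for both genes, and above it in the sibling pools. Each observed value rests on 3 pools, and its difference from counting error was not tested. Neither gene had the same 6 counts as any other gene in the table.

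Levels of different genes were compared per kb of exon, with exon lengths of 2909 bases for *hcn2a* and 3128 bases for *hcn2b* as deposited. On this scale *hcn2a* was at 1.25, 1.15 and 1.12 CPM per kb in the *fdx1b*-/- pools and 1.85, 2.25 and 1.78 CPM per kb in the sibling pools. The values of *hcn2b* were 2.01, 2.02 and 1.96 CPM per kb in the *fdx1b*-/- pools and 3.12, 3.37 and 2.74 CPM per kb in the sibling pools. *hcn2b* therefore had the higher level per kb in every pool. Its level was 1.63 times that of *hcn2a* (geometric mean, range 1.49 to 1.76), higher in 6 of 6 pools (exact sign-flip permutation test over pools, two-sided, *p* = 0.0312, the smallest that 6 pools allow). This order was not used to choose the genes. Reads that the copies have in common were not counted, and the effect of this or of the exon lengths, alike in every pool, was not tested.

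The balance between the copies was set beside the genotype in each pool. The ratio of *hcn2b* to *hcn2a* per kb was 1.6, 1.76 and 1.74 in *fdx1b*-/- replicates 1, 2 and 3, against 1.69, 1.49 and 1.54 in sibling replicates 1, 2 and 3. These ranges overlapped, with sibling replicate 1 inside the range of the mutants. The difference between the fitted log2 fold changes of *hcn2a* and *hcn2b* was -0.11, and it ran from -0.18 to -0.073 over the alternatives. Over the 6 pools log2 CPM of *hcn2a* and *hcn2b* had a Pearson *r* of 0.984. After the mean of each genotype was removed, *r* was 0.81. Both are descriptions over 6 pools whose values share library and genotype.

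Besides the pair, 4 HCN genes were analysed here, and all 4 passed the filter. Ordered by the mean level per kb over the 6 pools, *hcn2b* came before *hcn5*, *hcn2a*, *HCN4* (ENSDARG00000061685), *hcn3* and *hcn4l* (ENSDARG00000074419). The gene name table gives the last of these the symbol HCN4 as well, and HCN4 is the main pacemaker channel of the mammalian sinoatrial node. Per kb, *hcn2b* was 1.32 times as abundant as *hcn5*, higher in 6 of 6 pools. The order depends on the deposited exon lengths, which were 1513 bases for *hcn5* and 6726 bases for *hcn4l*. In mean CPM, *hcn5* was the lowest of the 6 genes, at 2.6 in *fdx1b*-/- larvae and 3.12 in siblings. *hcn4l*, at 3.8 CPM in *fdx1b*-/- larvae and 5.54 CPM in siblings, was then above *hcn3*, at 3.49 and 3.28 CPM. For the 5 pairs of neighbours in this order, the exact sign-flip permutation test gave adjusted *p* = 0.0781 for *hcn2b* over *hcn5* and for *hcn3* over *hcn4l*, with an unadjusted *p* of 0.0312, the smallest possible. For *hcn5* over *hcn2a*, *hcn2a* over *HCN4*, and *HCN4* over *hcn3*, the same exact permutation test over all 6 pools gave adjusted *p*-values of 0.156, 0.195 and 0.75. None of the 5 pairs thus reached an adjusted *p* of 0.05 in that test, and the order was taken from the same pools. That test takes both genotypes together, and the order was not the same in each. *hcn2a* averaged 1.18 CPM per kb in *fdx1b*-/- larvae, where it was below *hcn3* (1.39), and 1.96 CPM per kb in siblings, where it was above *hcn3* (1.31). This crossing contains the difference for which *hcn2a* was chosen, so nothing is read from it. *HCN4* crossed *hcn3* in the same way, being above it in 0 of 3 *fdx1b*-/- pools and in 3 of 3 sibling pools.

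**Figure D3:**
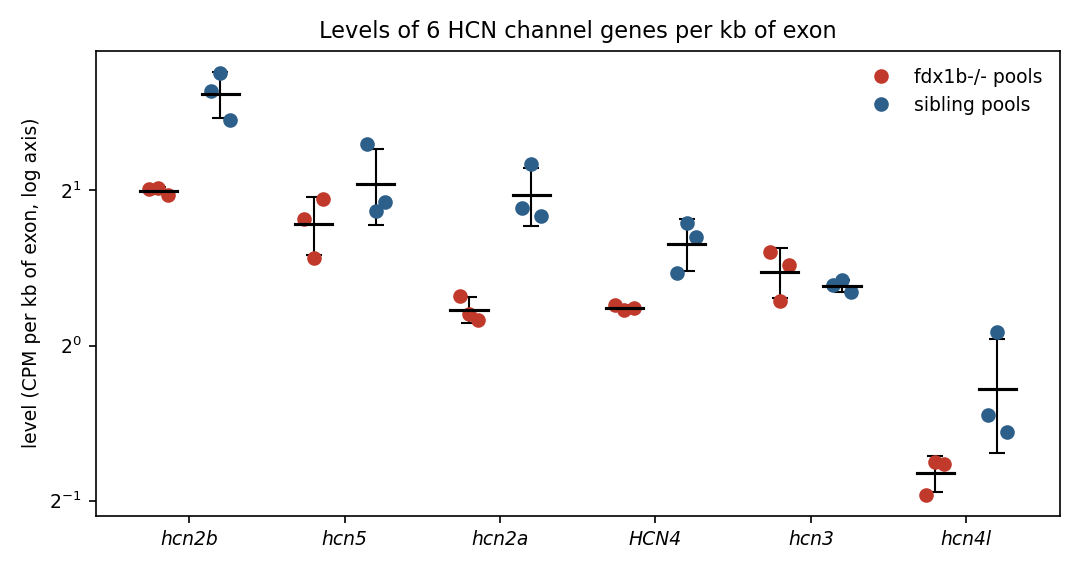
Level of 6 HCN genes in CPM per kb of exon on a log axis, with one point for each pool (red, *fdx1b*-/-; blue, siblings), the bar at the mean and whiskers at ± SD (n = 3). The genes stand in the order of their mean over all 6 pools, with *hcn2b* in the first place and *hcn2a* in the third.

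Among these 4 genes, 3 had a log2 fold change below 0. *HCN4* was at 4.06, 3.95 and 3.98 CPM in the *fdx1b*-/- pools and at 4.69, 5.84 and 5.48 CPM in the sibling pools, and *hcn4l* at 3.46, 4.0 and 3.96 CPM in the *fdx1b*-/- pools and at 4.92, 7.11 and 4.58 CPM in the sibling pools. Neither gene overlapped between the genotypes, as was the case on the lower side for 13.0% of all tested genes, and both had their highest level in sibling replicate 2, as the *hcn2* genes did. The log2 fold change was -0.40 for *HCN4* (SE 0.11, edgeR adjusted *p* = 0.0753) and -0.50 for *hcn4l* (SE 0.16, edgeR adjusted *p* = 0.106). For *hcn5* the log2 fold change was -0.28 (SE 0.16, edgeR adjusted *p* = 0.364), and for *hcn3* it was 0.094 (SE 0.13, edgeR adjusted *p* = 0.735), both with overlapping pools. None of the 4 passed the call threshold with edgeR or DESeq2, and 2 were lower at unadjusted *p* ≤ 0.05, as were 10.4% of all tested genes. Single libraries moved these values, *hcn4l* being at -0.32 without sibling replicate 2, and *hcn5* at -0.12 without sibling replicate 1 and at -0.18 without *fdx1b*-/- replicate 2. For *hcn3* the value was 0.032 without *fdx1b*-/- replicate 1 and 0.19 without *fdx1b*-/- replicate 2. Thinning all libraries to the smallest total moved *hcn4l* to -0.74 (edgeR adjusted *p* = 0.0311), still short of the call threshold. The values of *hcn2a* and *hcn2b* lay below those of all 4, as a description of genes that were picked for being low.

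The share of the pair among the 6 HCN genes was read within each pool, where no scaling of libraries enters. *hcn2a* and *hcn2b* made up 39.5, 41.5 and 37.6% of their summed level per kb in *fdx1b*-/- replicates 1, 2 and 3, against 45.8, 48.6 and 45.2% in sibling replicates 1, 2 and 3. The mutant shares were all below the sibling shares, which the choice of the pair favours. The summed level of the 6 genes was 8.03 ± 0.342 CPM per kb in *fdx1b*-/- larvae and 10.8 ± 0.79 CPM per kb in siblings (SD, n = 3 each). Without the pair, it was 4.86 ± 0.343 CPM per kb in *fdx1b*-/- larvae and 5.77 ± 0.26 CPM per kb in siblings (SD, n = 3 each). None of these measures overlapped between the genotypes, and among single genes 13.0% of those tested lay lower in the mutants without overlap. Within the sum that leaves out the pair, *hcn5* and *hcn3* each overlapped and no gene was called. The share and the sum of 6 contain the pair, which was chosen for being lower in these libraries, so nothing is read from their difference.

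Neuron markers, too, stood lower in the mutants. Of the 13 marker symbols listed, only 7 had an identifier in the name tables, among them *elavl4*, an RNA-binding protein gene of neurons, and the synaptic vesicle gene *syn2b*, and these 7 all had a log2 fold change below 0, with a median of -0.24. Their summed level was 533.7 to 585.4 CPM in *fdx1b*-/- pools and 598.5 to 700.5 CPM in sibling pools, a log2 difference of -0.24 (exact permutation test over pools, two-sided, *p* = 0.1, the smallest that 3 against 3 allow). No marker passed the call threshold in edgeR, while all 7 were lower at unadjusted *p* ≤ 0.05, as were 10.4% of all tested genes. DESeq2 called 2 of them lower, and over all genes to which it gave an adjusted *p*-value it called 2.18% lower and 2.15% higher. All 3 mutant values lay below all 3 sibling values in 4 of the 7 markers (57.1%), against 13.0% of the tested genes. The genotypes overlapped for *ELAVL3*, *syt1a* and *syn1*. Sibling replicate 3, the sibling pool lowest in both *hcn2* genes, was also the lowest sibling pool in neuron markers. The mutant pools did not share this order. There, replicate 3 was the highest in neuron markers, at 585.4 CPM, and the lowest in *hcn2a* and *hcn2b*, at 3.27 and 6.13 CPM. Expressed per 1000 CPM of these markers, *hcn2a* stood at 6.83, 5.88 and 5.58 in the *fdx1b*-/- pools and at 7.75, 9.36 and 8.66 in the sibling pools. On the same scale *hcn2b* stood at 11.8, 11.1 and 10.5 in the *fdx1b*-/- pools and at 14.1, 15.0 and 14.3 in the sibling pools. Neither gene overlapped between the genotypes on this scale, and the log2 differences were -0.50 for *hcn2a* and -0.38 for *hcn2b*. The pair was chosen for being lower, so nothing is read from this. The sum is weighted towards the abundant markers *elavl4*, *syt1a*, *ELAVL3* and *eno2*, with log2 fold changes of -0.24, -0.22, -0.20 and -0.20. The less abundant *syn2b*, *map2* and *syn1* were at -0.55, -0.49 and -0.36. The share of all genes without overlap on this scale was not computed.

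**Figure D4:**
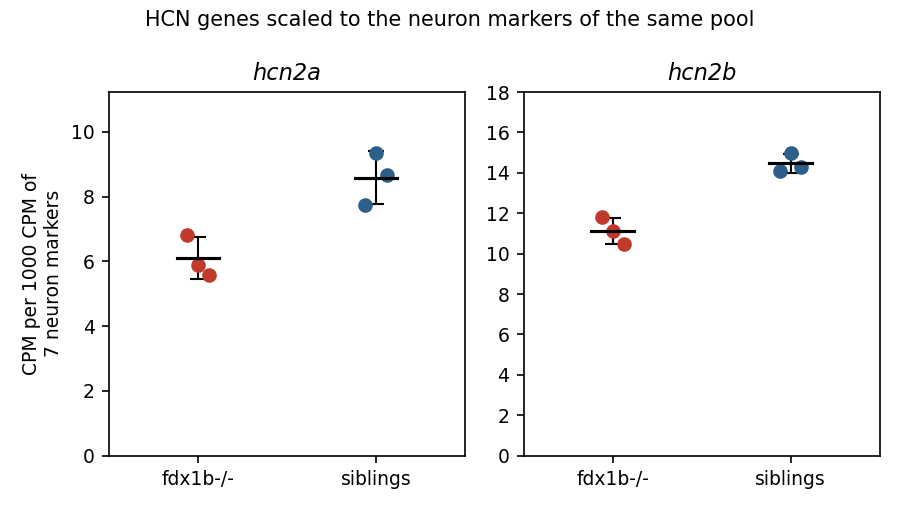
CPM of *hcn2a* and *hcn2b* per 1000 CPM of 7 neuron markers in the same pool, on linear axes from 0, with one point for each pool (red, *fdx1b*-/-; blue, siblings), the bar at the mean and whiskers at ± SD (n = 3). The highest *fdx1b*-/- pool, at 6.83 for *hcn2a* and 11.8 for *hcn2b*, lies below the lowest sibling pool, at 7.75 and 14.1. Both genes were chosen for being lower in the mutants.

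Markers of the heart and the retina, which also use HCN channels, had no common direction. Of 6 heart muscle genes, 3 were below 0, and their summed level was 230.6 to 248.8 CPM in *fdx1b*-/- pools and 197.8 to 227.8 CPM in sibling pools (exact permutation test over pools, two-sided, *p* = 0.1, the smallest possible). The cardiac myosin light chain gene *myl7* had a log2 fold change of -0.32 (SE 0.079, edgeR adjusted *p* = 0.0463) and the ventricular myosin gene *vmhc* one of 0.22 (SE 0.076, edgeR adjusted *p* = 0.134). Most of the heart sum came from *vmhc*, at 171 ± 9.88 CPM in *fdx1b*-/- larvae and 146 ± 12.4 CPM in siblings (SD, n = 3 each). The next most abundant, *myl4* and *myl7*, averaged 27.1 and 18.6 CPM in *fdx1b*-/- larvae and 26.7 and 23.1 CPM in siblings. A heart sum without *vmhc* was not computed. Genes of sinoatrial tissue, where the heartbeat starts, were split, with 3 of 6 below 0 and a median of 0.017, *isl1* being at -0.025. Of 14 photoreceptor loci, 10 were below 0, and the median was -0.044. Their summed level was 2327 to 2483 CPM in *fdx1b*-/- pools and 2336 to 2499 CPM in sibling pools. The largest change was 0.39 for *pde6h* (SE 0.079, edgeR adjusted *p* = 0.0234). A second locus, *PDE6H*, was at -0.30 and *rcvrn2* at 0.25 (edgeR adjusted *p* = 0.31 and 0.0857). No photoreceptor locus passed the threshold with edgeR. DESeq2 called 2 higher and 0 lower, against 2.15% and 2.18% of all genes. Skeletal muscle markers summed to 24170 to 26830 CPM in *fdx1b*-/- pools and to 19820 to 22870 CPM in sibling pools, the opposite direction to the neuron markers. The part of any of these cell types in the levels of *hcn2a* and *hcn2b* was not tested.

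Genes that act on HCN channels or supply their cyclic AMP were described next. Of 6 partner genes, 5 were below 0, with a median log2 fold change of -0.085 beside -0.00285 over all tested genes. *kctd3*, whose mammalian product binds HCN3, was the lowest at -0.32 (SE 0.071, edgeR adjusted *p* = 0.032). The genes of TRIP8b, a subunit that sets HCN trafficking in mammalian neurons, were at -0.15 for *pex5lb* and -0.12 for *PEX5L*, at adjusted *p*-values of 0.493 and 0.439 (edgeR). Among 19 adenylate cyclase, beta-adrenergic receptor and stimulatory G protein genes, 16 were below 0, with a median of -0.15. The lowest was the adenylate cyclase gene *adcy1a*, at 8.72 ± 0.879 CPM in *fdx1b*-/- larvae and 12.4 ± 1.17 CPM in siblings (SD, n = 3 each), a log2 fold change of -0.49 (SE 0.1, edgeR adjusted *p* = 0.0237). A second locus, *ADCY1*, was at 9.95 ± 0.543 CPM in *fdx1b*-/- larvae and 10.7 ± 0.437 CPM in siblings (SD, n = 3 each). Its log2 fold change was -0.096 (SE 0.083, edgeR adjusted *p* = 0.558). No gene of these lists passed the call threshold with edgeR, 1 partner and 5 cyclic AMP genes were lower at unadjusted *p* ≤ 0.05 (10.4% of all tested genes), and DESeq2 called 1 of each list lower (2.18% of all genes).

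The voltage-gated relatives of the HCN genes gave the wider setting. Of 73 potassium, calcium and sodium channel genes analysed here, 62 (84.9%) had a log2 fold change below 0, against 50.7% of all tested genes, and the median was -0.18. With edgeR 0 of the 73 passed the threshold and 4 were lower at adjusted *p* ≤ 0.05, where 1.95% of all tested genes were lower and 1.94% higher. At unadjusted *p* ≤ 0.05, 33 of them were lower, as were 10.4% of all tested genes. DESeq2 called 5 lower, against 2.18% of all genes, and edgeR called 5 without sibling replicate 3, when it called 342 genes lower in all. All 3 mutant values lay below the siblings in 30 of them (41.1%), against 13.0% of the tested genes. The lowest were the fast delayed rectifier gene *kcnc1b* at -0.56 (SE 0.14, edgeR adjusted *p* = 0.0523), *kcnh3* at -0.43 and the P/Q-type calcium channel gene *cacna1ab* at -0.39. *cacna1da*, whose mammalian counterpart carries pacemaker calcium current in the sinoatrial node, was at 44.4 ± 0.655 CPM in *fdx1b*-/- larvae and 57.3 ± 5.87 CPM in siblings (SD, n = 3 each), a log2 fold change of -0.36 (SE 0.07, edgeR adjusted *p* = 0.0182). The more abundant second copy, *cacna1db*, was at 139 ± 2.58 CPM in *fdx1b*-/- larvae and 149 ± 7.49 CPM in siblings (SD, n = 3 each). Its log2 fold change was -0.10 (SE 0.062, edgeR adjusted *p* = 0.402). The fold changes of *hcn2a* and *hcn2b* were below the lowest of these 73, which the choice of the pair favours, so nothing is read from it. Channel genes not reported here are not among the 73. The auxiliary subunits had 34 of 46 genes below 0 and a median of -0.14, *cacna2d2a* being at -0.55 (SE 0.1, edgeR adjusted *p* = 0.0162). None of these 46 passed the threshold with edgeR, 14 were lower and 3 higher at unadjusted *p* ≤ 0.05, against 10.4% and 9.21% of all tested genes, and DESeq2 called 2 lower, against 2.18% of all genes.

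**Figure D5:**
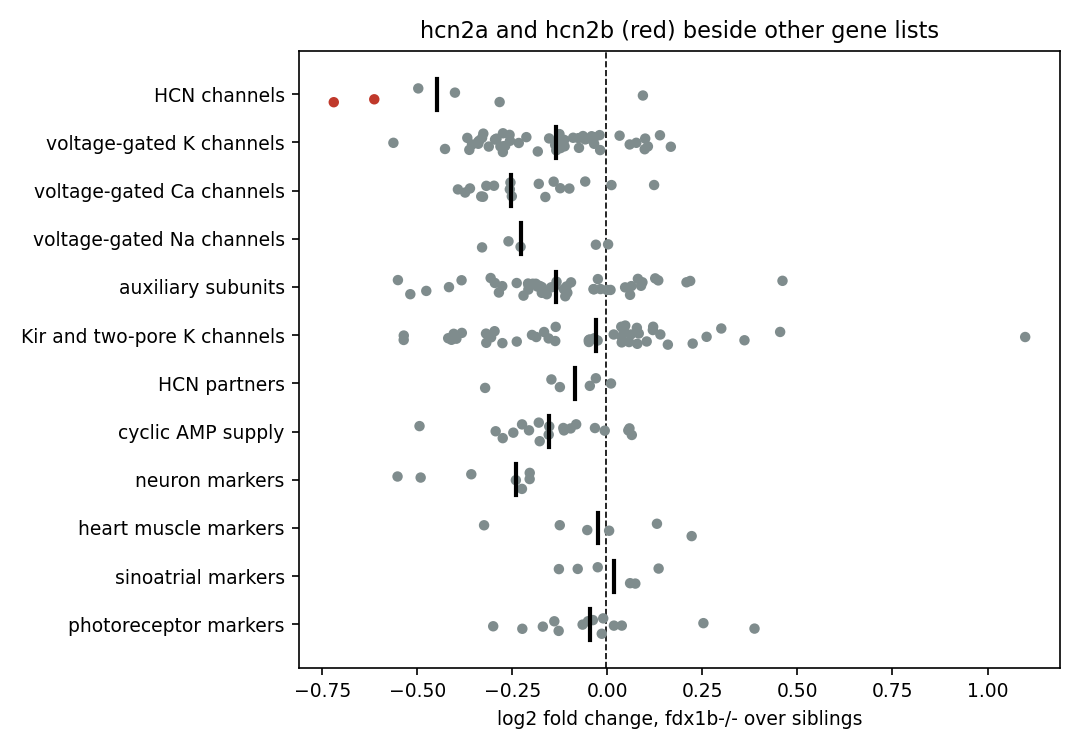
Log2 fold change, *fdx1b*-/- over siblings, of the genes analysed in 12 lists, one point a gene, with the black bar at the median of the list, the dashed line at the median of all tested genes and random vertical offsets for legibility. *hcn2a* and *hcn2b*, in red, lie at -0.72 and -0.61, left of the voltage-gated channels listed, whose lowest gene is at -0.56. The choice of the pair for being low favours this.

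Likeness to the pair was measured as the Pearson *r* of log2 CPM with the mean of *hcn2a* and *hcn2b* over the 6 pools, among 19900 named genes of at least 1 CPM. The 5 closest were *si:dkey-239b22.1*, *fmn2a*, *gpr22b*, *coro2bb* and *pkhd1l1*, with *r* between 0.9924 and 0.9958. Removing the genotype means left *r* between 0.898 and 0.997 for these 5 genes, which their choice by *r* over the same pools favours. *coro2bb*, a gene of the actin-binding coronins, was at 4.63, 4.73 and 4.5 CPM in the *fdx1b*-/- pools and 6.7, 7.72 and 6.03 CPM in the sibling pools, a level and a size of difference near those of the *hcn2* genes. The other 4 had log2 fold changes of -2.43, -0.24, -0.32 and -0.37, so that a similar pattern over pools went with differences of unlike size. For *HCN4* *r* was 0.92, and 0.412 within genotypes, and for *hcn4l* it was 0.887, and 0.796 within genotypes. Of the 19900 genes, 735 had a larger *r* over the 6 pools than *HCN4* and 1256 a larger one than *hcn4l*. For *hcn5* *r* was 0.516 and for *hcn3* -0.308, and within genotypes the sign was the opposite, at -0.232 and 0.339. All of these are descriptions over 6 pools that share library and genotype.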

How the data were processed

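RNA of whole larvae was depleted of ribosomal RNA and made into libraries that keep the strand. Single-end reads had been aligned with STAR to the GRCz10 assembly by the authors, whose own Perl program then took, for every Ensembl locus, the reads with a unique place on its exons. The values deposited by the authors are these raw counts, without normalization, and the exon length of each gene in bases. Whether counting used the strand is not given in the sources used here, so overlapping loci can share reads. Unique mapping leaves out reads that paralogs have in common.

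The software was DESeq2 1.42.0, edgeR 4.0.16 and limma 3.58.1 under R 4.3.3. After filterByExpr and TMM scaling, all 26544 tested genes were fitted by edgeR's quasi-likelihood method without covariates, and *p*-values were adjusted over all of them (Benjamini-Hochberg). Each SE is the fold change divided by the root of its F statistic. Log2 CPM used a prior count of 2. A floor of 3 counts equals 0.0598 to 0.165 CPM and, without molecular identifiers, reflects counting error alone. Of 31388 identifiers, 25925 had a symbol in the gene name table, and symbols were matched without regard to case, so 1 symbol can name several loci. Methods were tested on simulated data.

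The members, lists and tests were chosen with earlier results of these data known. Named are both members, the other HCN genes analysed here, from each list the genes past the threshold or else those with the largest and smallest change, and the 5 most alike in pattern. The second loci of *cacna1da*, *adcy1a* and *kcnk3b* were added after their values were seen. Alternatives were other scalings (DESeq2 size factors, upper quartile, TMM without the 20 most abundant genes), no filter or at least 10 counts in every sample, DESeq2's Wald test, the replicate number as a block, each library left out, other thresholds, thinning to the smallest total, and raw counts in place of counts per kb. Leaving out each neuron marker was added after seeing the data. Some channel genes are not reported here and were left out of the lists, while the fit and its adjustment cover all tested genes.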

Additional observations from a re-analysis of the deposited data

How the results depend on the processing

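The log2 fold changes of *hcn2a* and *hcn2b* kept their sign in all 14 alternatives and moved by less than the spread between pools, and so did the summed neuron markers in 16, from -0.31 to -0.20. The median of the 4 other HCN genes stayed between -0.46 and -0.28. The *hcn2b* to *hcn2a* ratio was 1.76 on raw counts. Counts of called genes, 132 lower and 164 higher, depended on the choices most. They were 445 and 440 with DESeq2, and 504 and 480 at adjusted *p* ≤ 0.05 with the fold change limit kept. With a library left out they were 59 to 342 and 49 to 280, the highest without sibling replicate 3. Voltage-gated channel genes called lower numbered 0, and 5, 4 and 0 to 5 under these settings.

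Same-numbered pools did not deviate together: the correlations of deviations from the genotype means, across genes, were -0.141, -0.14 and 0.0907 for numbers 1, 2 and 3. With the replicate number as a block, 107 genes were called lower and 95 higher, 0 of the voltage-gated channel genes, and neither member. Not every sample correlated best with its own number. Counts of 119 to 490 for the members limit the precision of single pools to several percent.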

Other observations

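Gene order was taken from RefSeq's table for GRCz12tu, which places *hcn2b* on chromosome 22 between *bsg* and *polrmt*. Among the 6 protein-coding genes on each side, 9 were tested, with edgeR adjusted *p*-values of 0.0609 to 0.95. The immediate neighbours *bsg*, a membrane glycoprotein gene, and *polrmt*, the mitochondrial RNA polymerase gene, had log2 fold changes of 0.13 (SE 0.071, edgeR adjusted *p* = 0.348) and -0.011 (SE 0.055, edgeR adjusted *p* = 0.94). The lowest of the 9 was *cbarpb*, the third gene before *hcn2b* and a relative of a mammalian calcium channel regulator gene, at -0.44 (SE 0.12, edgeR adjusted *p* = 0.0609). *hcn2a* has no entry under that symbol in this table, so its neighbours were not examined. These genes were looked at after the values of *hcn2b* were known.

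Among 48 tested inward rectifier and K2P (leak) potassium channel genes, which hold the resting potential against which HCN channels work, 25 were below 0 and the median was -0.03. At unadjusted *p* ≤ 0.05, 10 of them were lower and 4 higher, against 10.4% and 9.21% of all tested genes. All 3 mutant values lay below the siblings in 16 (33.3%), against 13.0% of the tested genes, and above them in 4, against 12.9%. With edgeR 1 was called, higher, where 0.618% of all tested genes were called higher and 0.497% lower. It was the acid-sensitive K2P channel gene *kcnk3b*, at 3.76 ± 0.558 CPM in *fdx1b*-/- larvae and 1.72 ± 0.342 CPM in siblings (SD, n = 3 each). Its log2 fold change was 1.1 (SE 0.18, edgeR adjusted *p* = 0.00668). A second locus, *KCNK3*, was at 1.84 ± 0.0405 CPM in *fdx1b*-/- larvae and 2.18 ± 0.0736 CPM in siblings (SD, n = 3 each). Its log2 fold change was -0.24 (SE 0.145, edgeR adjusted *p* = 0.397). *kcnj5*, whose mammalian counterpart forms a G protein-gated channel of the atrium, was at -0.54 (SE 0.15, edgeR adjusted *p* = 0.0729). Skeletal muscle markers went the other way from the neuron markers, with all 10 loci above 0 and a median of 0.27. No gene of that list passed the threshold with edgeR, all 10 were higher at unadjusted *p* ≤ 0.05 (9.21% of all tested genes), and DESeq2 called 5 higher (2.15% of all genes).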
